A study of Mus musculus with 24 samples.

Results

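General adipocyte genes and adipokines were followed in mouse aortas through 10 genes, not all of them particular to adipocytes. They were picked by gene symbol out of 32561 genes in the deposited table. They are 4 genes of secreted proteins, or adipokines (Adipoq, Lep, Retn and Cfd), 2 transcription factors that drive adipocyte differentiation (Pparg and Cebpa), and 4 genes of lipid handling (Fabp4, Plin1, Lpl and Cd36). RNA came from the aortas of 24 mice of the 129S1/SvlmJ strain, aged 44 to 53 days, with 4 separate animals in each of 6 groups. Kl/Kl mice were homozygous for a recessive Klotho mutation and had renal failure, and control mice had healthy kidneys and carried 0 or 1 copy of that mutation, so each control group can mix 2 Klotho genotypes. Both were compared in males and females with the unaltered Bmp2 gene (Bmp2+/+) and in males homozygous for a mutated Bmp2 allele, ∆UCS/∆UCS, and ∆UCS males were compared with Bmp2+/+ males of the same Klotho genotype. Mutant and control mice came from matings of heterozygotes. The mice received moistened chow after weaning, because Kl/Kl mice were described as smaller and weaker.

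The pathway these genes belong to is well established. PPARγ, encoded by Pparg, and C/EBPα, encoded by Cebpa, induce each other during differentiation and together switch on the genes of fat storage. Lipoprotein lipase (Lpl) releases fatty acids from circulating triglyceride at the vessel wall, CD36 (Cd36) takes fatty acids into the cell, FABP4 (Fabp4) binds them inside it, and perilipin 1 (Plin1) coats the lipid droplet and controls access of lipases to it. Mature adipocytes secrete adiponectin (Adipoq), leptin (Lep), which signals the size of fat stores, resistin (Retn) and adipsin (Cfd), the complement protease that activates factor B. The mouse aorta carries adipose tissue on its outer surface, and around the thoracic part this tissue is of the brown, heat-producing kind. Lpl, Cd36, Fabp4 and Pparg are also expressed outside adipocytes, in macrophages, capillary endothelium or heart muscle.

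All 10 genes were detected in all 24 libraries. Their positions in mm39, the build of the files, were as follows for the adipokines: Adipoq (ENSMUSG00000022878) at chr16:22965286-22976779 on the plus strand, Lep (ENSMUSG00000059201) at chr6:29060219-29073877 on the plus strand, Retn (ENSMUSG00000012705) at chr8:3705770-3710111 on the plus strand, and Cfd (ENSMUSG00000061780) at chr10:79726687-79728490 on the plus strand. Pparg (ENSMUSG00000000440) lies at chr6:115337912-115467361 on the plus strand, and Cebpa (ENSMUSG00000034957) at chr7:34818718-34821354 on the plus strand. Fabp4 (ENSMUSG00000062515) lies at chr3:10269148-10273637 on the minus strand, Plin1 (ENSMUSG00000030546) at chr7:79369966-79382652 on the minus strand, Lpl (ENSMUSG00000015568) at chr8:69333143-69360101 on the plus strand, and Cd36 (ENSMUSG00000002944) at chr5:17986688-18093800 on the minus strand. Levels are given as the deposited TPM, a read count scaled to gene length and to the library. These TPM were scaled by the length of the whole gene with its introns, so they compare a gene between libraries and not one gene with another. The lowest estimated number of reads in any library was 81 for Lep and 265 for Retn, and between 2267 and 111690 for the other 8 genes. The highest was 2877 for Lep and 1834 for Retn, so counting error weighed most on these genes. All 10 passed the filter of at least 1 TPM in at least 4 libraries, with Lep at or above 1 TPM in 17 libraries, Pparg in 16 and the other 8 genes in all 24.

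Estimated depth was 20593000 to 61109000 reads per library, and mitochondrial genes took 40.2% to 61.2% of the TPM. The sex genes Xist and Ddx3y went against the label in 2 of 24 libraries. The library labelled Bmp2+/+ Kl/Kl male replicate 1 showed Xist at 11.4 TPM with Ddx3y at 0.0138 TPM, and in the one labelled Bmp2+/+ Kl/Kl female replicate 2 Xist was at 0.0281 TPM and Ddx3y at 4.81 TPM. Every result is therefore given with all 24 libraries as labelled and, where it moved, without these 2 libraries. Libraries were numbered in 2 sets, here set 1 and set 2, known only from how their names are spelled. Set 1 held every ∆UCS library, set 2 every female one, and the Bmp2+/+ male groups were split 2 and 2.

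None of the 10 genes passed the threshold of an adjusted p under 0.05 in any comparison, in the limma fit across all 9933 tested genes or in any of its 62 settings. The lowest adjusted p that any of them reached was 0.0839, for Pparg in ∆UCS males, in the limma fit without the 2 libraries and with another scaling. The background was as low. With all 24 libraries, 0% of all tested genes passed in each of the 7 contrasts, although 603 genes in Bmp2+/+ males, 1498 in Bmp2+/+ females and 1628 in ∆UCS males had an unadjusted limma p under 0.05 for Kl/Kl against control. Without the 2 libraries, 1.10% of all genes passed for Kl/Kl against control in Bmp2+/+ males (103 higher and 6 lower), 2.60% in Bmp2+/+ females (256 higher and 2 lower) and 0.644% in ∆UCS males (53 higher and 11 lower), and 0% in the other contrasts. Rescaling those 22 libraries by the median of their gene ratios changed the split to 147 higher and 22 lower, 241 higher and 133 lower, and 92 higher and 74 lower in the same order. The median of all genes on the deposited scale was itself shifted in Kl/Kl aortas, by 0.09 in Bmp2+/+ males, 0.27 in Bmp2+/+ females and 0.26 in ∆UCS males on the log2 scale. A member near those values was thus close to the typical gene of its comparison.

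**Figure D1:**
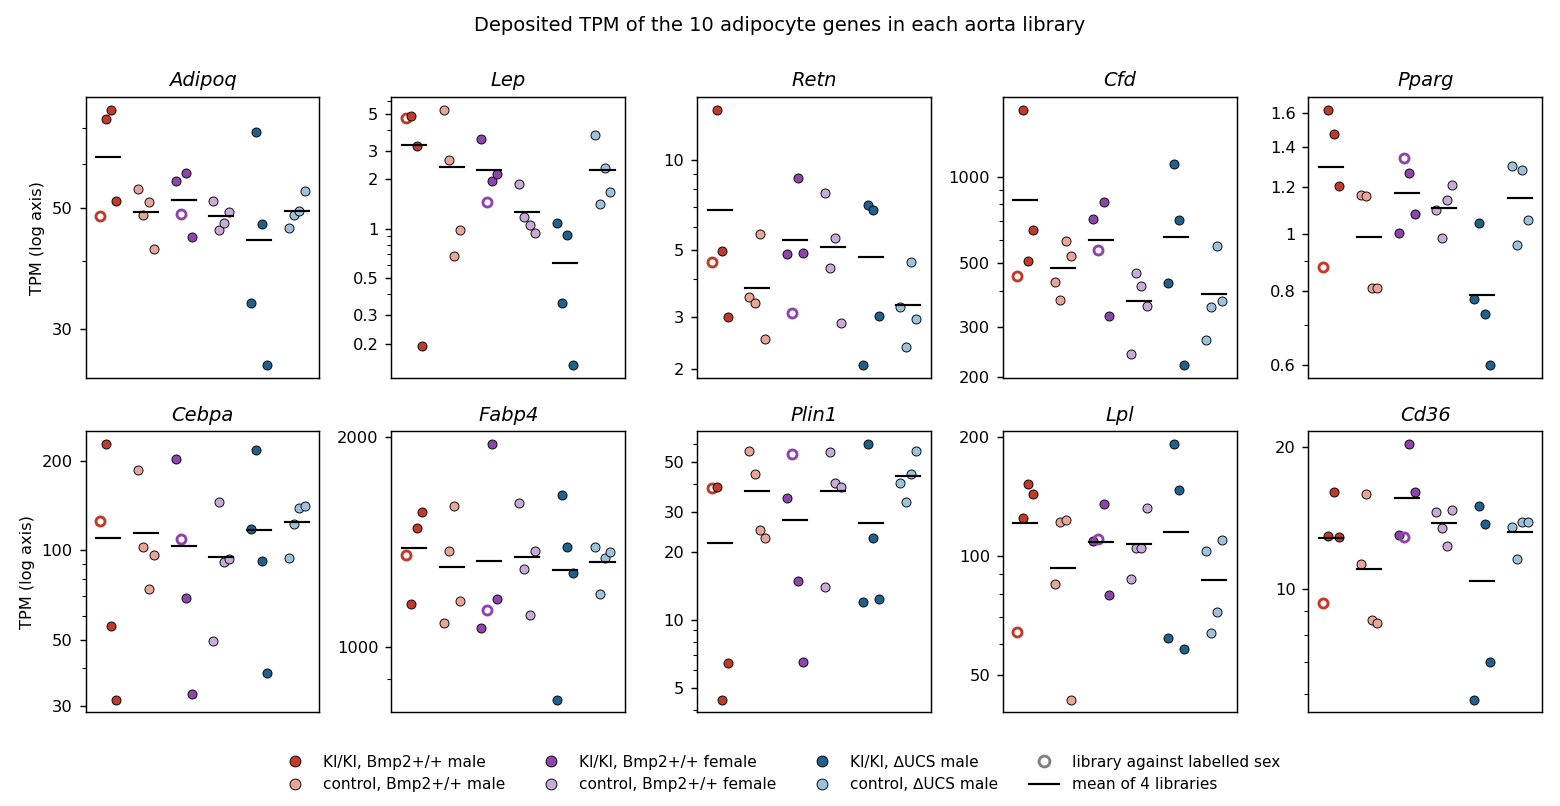
Deposited TPM of each of the 10 genes (one panel per gene, log axis) in the 24 libraries, by group with Kl/Kl left of its control, each point being 1 aorta and each line the mean of 4. The 2 libraries whose sex genes go against their labels are drawn as open points. Across the 24 libraries, the lowest Kl/Kl point lies below the lowest control point for every gene except Lpl. The highest Kl/Kl point lies above the highest control point for every gene except Lep.

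Adiponectin mRNA was the steadiest of the members in healthy aortas. Adipoq stood at 42.1 to 54.2 TPM over all 12 control libraries and at 25.8 to 75.4 TPM over the 12 Kl/Kl libraries, with no shared direction among the Kl/Kl groups. In Bmp2+/+ males Adipoq had 48.3, 72.5, 75.4 and 51.4 TPM in Kl/Kl aortas, against 54.2, 48.5, 51.3 and 42.1 TPM in control aortas. Kl/Kl libraries 2 and 3 lay above every control library and the others among them, and the log2 change was 0.31 (SE 0.22, limma adjusted p = 0.845). In Bmp2+/+ females the values were 55.8, 48.7, 57.8 and 44.3 TPM in Kl/Kl aortas, against 51.4, 45.5, 46.9 and 49.2 TPM in control aortas. Those groups overlapped, with a log2 change of 0.09 (SE 0.22, limma adjusted p = 0.793). In ∆UCS males the Kl/Kl aortas had 33.5, 68.8, 46.8 and 25.8 TPM, against 46.0, 48.5, 49.4 and 53.7 TPM in control aortas. Kl/Kl libraries 1 and 4 were below every control library and library 2 above every one, so the log2 change of −0.26 (SE 0.22, limma adjusted p = 0.48) averages values on both sides of the controls.

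The within-group spread of Adipoq, as the pooled SD of log2(TPM + 1), was 0.406 in Kl/Kl aortas and 0.112 in controls, 3.63 times as large. Without the 2 libraries it was 0.437 in Kl/Kl aortas and 0.112 in controls. The Kl/Kl spread exceeded the control spread in 10 of 10 members, but so it did in 89% of all tested genes, and the median ratio was 1.76 over the members and 1.55 over all genes. After Adipoq the highest ratios were 2.21 for Cebpa, 2.13 for Cfd and 2.1 for Plin1, and the lowest was 1.21 for Lep. The limma fit assumes one spread for all groups, so its p-values average over this difference.

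Leptin mRNA was low and varied most of the 10 genes, 36.0-fold between the lowest and the highest library. In ∆UCS males Lep had 1.08, 0.354, 0.913 and 0.147 TPM in Kl/Kl aortas, against 3.73, 1.41, 2.36 and 1.68 TPM in control aortas. All 4 Kl/Kl libraries lay below all 4 controls, a pattern that 2.10% of all genes showed in that direction. The log2 change was −1.01 (SE 0.41, 95% confidence interval −1.88 to −0.15, limma unadjusted p = 0.0238, adjusted p = 0.25). It was as large without the 2 libraries, which are not in this comparison (−1.01, SE 0.38, limma adjusted p = 0.195). With a pseudocount of 0.1 in place of 1, which compresses low values less, the Lep change was −1.89 (limma adjusted p = 0.19).

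In Bmp2+/+ females the mean difference in leptin mRNA had the opposite sign. Lep had 3.52, 1.45, 1.96 and 2.16 TPM in female Kl/Kl aortas, against 1.88, 1.18, 1.05 and 0.949 TPM in female control aortas, a log2 change of 0.51 (SE 0.41, limma adjusted p = 0.454). Only Kl/Kl library 2, one of the 2 doubted ones, overlapped the controls. Without it all 3 Kl/Kl libraries were higher, as were those of 28.2% of all genes in that direction, and the change was 0.64 (SE 0.41, limma adjusted p = 0.327). In Bmp2+/+ males Lep had 4.70, 4.86, 3.21 and 0.194 TPM in Kl/Kl aortas, against 5.30, 2.62, 0.682 and 0.978 TPM in control aortas. Both groups spanned low and high values there. The log2 change was 0.29 (SE 0.41, limma adjusted p = 0.947) and turned to −0.10 (SE 0.42, limma adjusted p = 0.965) without the 2 libraries.

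Mean resistin and adipsin mRNA were higher in Kl/Kl aortas on the deposited scale, without passing the test, and Retn in females was lower instead on the median-of-ratios scale (−0.27). Retn averaged 6.82 ± 5.35 TPM in Bmp2+/+ male Kl/Kl aortas and 3.76 ± 1.34 TPM in their controls (SD, n = 4 each), and the Kl/Kl mean rested on library 2, at 14.7 TPM. It averaged 5.40 ± 2.39 TPM in female Kl/Kl aortas and 5.12 ± 2.07 TPM in female controls, and 4.74 ± 2.58 TPM in ∆UCS Kl/Kl aortas and 3.28 ± 0.92 TPM in ∆UCS controls (SD, n = 4 each). The log2 changes of Retn were 0.55, 0.06 and 0.33, all with groups that overlap, and the female one was 0.25 without library 2. Cfd averaged 829 ± 591 TPM in Bmp2+/+ male Kl/Kl aortas and 481 ± 101 TPM in their controls (SD, n = 4 each). In Bmp2+/+ females Cfd had 713, 556, 812 and 326 TPM in Kl/Kl aortas, against 241, 462, 415 and 354 TPM in control aortas, so 3 of 4 Kl/Kl libraries exceeded every control. In ∆UCS males Cfd had 424, 1107, 705 and 220 TPM in Kl/Kl aortas, against 270.2, 350.4, 574 and 367 TPM in control aortas. Here 2 of 4 Kl/Kl libraries were above all controls and library 4 was below them. The log2 changes of Cfd were 0.58, 0.67 and 0.47 (SE 0.43 each, limma adjusted p = 0.851, 0.378 and 0.521), the same sign in all 3 comparisons. Without the 2 libraries and with median-of-ratios scaling they were smaller, at 0.56, 0.23 and 0.17 in the same order. On the deposited scale, fits that left out a replicate, with or without the 2 doubted libraries, gave Cfd values of 0.18 to 1.15 in Bmp2+/+ males. They gave 0.43 to 1.09 in Bmp2+/+ females and 0.10 to 0.88 in ∆UCS males.

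As a group the 4 adipokines had median log2 changes of 0.43 in Bmp2+/+ males, 0.30 in Bmp2+/+ females and 0.03 in ∆UCS males, against 0.09, 0.27 and 0.26 for all tested genes. On the deposited scale all 4 were positive in the Bmp2+/+ comparisons, and Retn and Cfd in the ∆UCS males, but on the median-of-ratios scale Adipoq and Retn were negative in females (−0.29 and −0.27), and without the 2 libraries Lep was negative in Bmp2+/+ males (−0.10). The medians on the median-of-ratios scale of all 24 libraries were 0.001 in Bmp2+/+ females and −0.23 in ∆UCS males.

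Pparg mRNA lay between 0.599 and 1.62 TPM over the 24 libraries, so the added 1 of the log scale shrinks its log2 changes. In ∆UCS males it had 0.777, 1.04, 0.731 and 0.599 TPM in Kl/Kl aortas, against 1.30, 0.959, 1.28 and 1.06 TPM in control aortas. Kl/Kl library 2 overlapped the controls and the other 3 were lower. The log2 change was −0.27 (SE 0.12, 95% confidence interval −0.52 to −0.01, limma unadjusted p = 0.0393, adjusted p = 0.281). It was −0.90 (SE 0.28, limma unadjusted p = 0.0042, adjusted p = 0.196) with voom on the estimated reads, and did not pass there either. Voom adds no such offset but also rescaled the libraries by the median of their gene ratios, so both changes act at once. The log2 ratio of the group means, which has no offset, was −0.55 on the deposited scale and −0.88 after median-of-ratios scaling. After median-of-ratios scaling of all 24 libraries, Pparg and Lep were both lower with no overlap in ∆UCS Kl/Kl aortas, as were 5.71% of all genes. In Bmp2+/+ males Pparg had 0.880, 1.62, 1.47 and 1.21 TPM in Kl/Kl aortas, against 1.16, 1.16, 0.810 and 0.811 TPM in control aortas, a log2 change of 0.20 (SE 0.12, limma adjusted p = 0.843). Without the doubted library 1, whose value was among the lowest, all 3 Kl/Kl libraries were above all controls for Pparg and also for Lpl, as were 5.73% of all genes, and the Pparg change was 0.28 (SE 0.13, limma adjusted p = 0.442). In Bmp2+/+ females Pparg averaged 1.17 ± 0.16 TPM in Kl/Kl aortas and 1.11 ± 0.09 TPM in controls (SD, n = 4 each), a log2 change of 0.04. The Pparg locus overlaps an antisense gene with at most 5 reads in a library, and the use of strand in counting is not given in the sources used here.

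The scaling changed the direction of the members' mean differences in females. After median-of-ratios scaling, Adipoq was lower in all 4 female Kl/Kl libraries than in all 4 female controls, as were 3.17% of all genes, and without library 2 both Adipoq and Pparg were, as were 7.23% of all genes. The log2 changes on that scale were −0.29 for Adipoq and −0.16 for Pparg, against 0.09 and 0.04 on the deposited scale, and none of these values passed the limma test. The directions of Adipoq, Pparg, Retn, Lpl and Cd36 in females are therefore given with their scale only.

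Cebpa mRNA varied widely within the Kl/Kl groups. In Bmp2+/+ males it had 126, 228, 55.8 and 31.4 TPM in Kl/Kl aortas, against 186, 103, 74.0 and 96.3 TPM in control aortas. Kl/Kl libraries 3 and 4 were below all controls and library 2 above them. In Bmp2+/+ females it had 203, 109, 69.4 and 32.9 TPM in Kl/Kl aortas, against 49.6, 145, 91.6 and 93.5 TPM in control aortas, and in ∆UCS males 118, 219, 92.1 and 38.7 TPM in Kl/Kl aortas, against 94.5, 123, 139 and 141 TPM in control aortas. Each Kl/Kl group thus held 1 library above and at least 1 below all its controls. The log2 changes were −0.35, −0.07 and −0.32 (SE 0.58 each, limma adjusted p = 0.953, 0.946 and 0.74), and −0.69 in Bmp2+/+ males and −0.19 in Bmp2+/+ females without the 2 libraries (limma adjusted p = 0.743 and 0.863). Cebpa has a single exon with an overlapping antisense gene of up to 64 reads in a library, against at least 2528 reads for Cebpa.

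Perilipin 1 mRNA had the largest mean differences of the lipid genes, lower in Kl/Kl aortas in all 3 comparisons, and did not pass the test in any. In Bmp2+/+ males Plin1 had 38.3, 38.6, 4.43 and 6.43 TPM in Kl/Kl aortas, against 56.1, 44.0, 24.9 and 23.1 TPM in control aortas. Kl/Kl libraries 3 and 4 were far below the lowest control, and libraries 1 and 2 lay among the controls. In Bmp2+/+ females it had 34.6, 54.3, 14.9 and 6.52 TPM in Kl/Kl aortas, against 14.0, 55.6, 40.4 and 38.9 TPM in control aortas. Library 2, at 54.3 TPM, is the doubted one. In ∆UCS males it had 11.9, 60.0, 23.1 and 12.4 TPM in Kl/Kl aortas, against 40.2, 33.3, 44.5 and 56.0 TPM in control aortas. There 3 of 4 Kl/Kl libraries were below all controls and library 2 above them.

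The log2 changes of Plin1 were −1.17 (95% confidence interval −2.60 to 0.26), −0.64 (−2.07 to 0.78) and −0.96 (−2.39 to 0.47) in the same order, each with an SE of 0.69 (limma adjusted p = 0.843, 0.56 and 0.433). Without the 2 libraries they were −1.69 (SE 0.68, 95% confidence interval −3.11 to −0.27, limma unadjusted p = 0.022, adjusted p = 0.343), −1.08 (SE 0.67, limma adjusted p = 0.306) and −0.96 (SE 0.62, limma adjusted p = 0.407). Adding median-of-ratios scaling gave −1.87, −1.52 and −1.25 (limma adjusted p = 0.144, 0.17 and 0.255). The sign of Plin1 was negative in all settings of these 3 comparisons and the value passed in none, but its size depended on single libraries. It was −0.13 in Bmp2+/+ females without Kl/Kl replicate 4 and −1.04 without control replicate 1, and −0.55 in Bmp2+/+ males without Kl/Kl replicate 3. Over all fits that left out a replicate, with or without the 2 doubted libraries, Plin1 ran from −2.49 to −0.55 in Bmp2+/+ males. It ran from −1.65 to −0.13 in Bmp2+/+ females and from −1.44 to −0.70 in ∆UCS males. Because whole aortas were measured, fewer adipocytes and less RNA per adipocyte cannot be told apart for any of these genes.

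Plin1 was also lower on average relative to Adipoq. The ratio of Plin1 to Adipoq TPM within a library, which no scaling between libraries touches, averaged 0.378 ± 0.348 in Bmp2+/+ male Kl/Kl aortas and 0.744 ± 0.268 in their controls (SD, n = 4 each). It averaged 0.535 ± 0.436 in female Kl/Kl aortas and 0.787 ± 0.392 in female controls, and 0.551 ± 0.223 in ∆UCS Kl/Kl aortas and 0.876 ± 0.146 in ∆UCS controls (SD, n = 4 each). Leaving out the 2 libraries gave 0.239 ± 0.257 in Bmp2+/+ male Kl/Kl aortas and 0.342 ± 0.247 in female Kl/Kl aortas (SD, n = 3 each). The Kl/Kl and control ranges overlapped in all 3 comparisons, and these ratios were not tested.

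The other 3 lipid genes showed small mean differences. Fabp4 was the least variable of the 10 genes, within 2.32-fold between its lowest and its highest library, at 841 to 1951 TPM in Kl/Kl aortas and 1084 to 1610 TPM in controls. Its log2 changes were 0.10, −0.05 and −0.08 (SE 0.21 each), and the 95% confidence intervals, −0.35 to 0.54, −0.49 to 0.39 and −0.52 to 0.37, did not reach a log2 change of 1 in either direction. The value in Bmp2+/+ males was −0.07 on the median-of-ratios scale. Lpl averaged 121 ± 39.7 TPM in Bmp2+/+ male Kl/Kl aortas and 93.5 ± 37.9 TPM in their controls, 109 ± 22.6 TPM in female Kl/Kl aortas and 107 ± 18.6 TPM in female controls, and 115 ± 65.7 TPM in ∆UCS Kl/Kl aortas and 87.1 ± 22.5 TPM in ∆UCS controls (SD, n = 4 each). Its log2 changes were 0.41, 0.01 and 0.24 (limma adjusted p = 0.892, 0.989 and 0.692), and that in Bmp2+/+ males was 0.64 (limma adjusted p = 0.595) without library 1. Cd36 averaged 12.8 ± 2.76 TPM in Bmp2+/+ male Kl/Kl aortas and 11.1 ± 3.48 TPM in their controls, 15.6 ± 3.47 TPM in female Kl/Kl aortas and 13.8 ± 1.13 TPM in female controls, and 10.4 ± 4.67 TPM in ∆UCS Kl/Kl aortas and 13.2 ± 1.12 TPM in ∆UCS controls (SD, n = 4 each). The log2 changes of Cd36 were 0.21, 0.15 and −0.41 (SE 0.26 each, limma adjusted p = 0.931, 0.721 and 0.391), and those in Bmp2+/+ males and females were 0.36 and 0.22 without the 2 libraries.

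**Figure D2:**
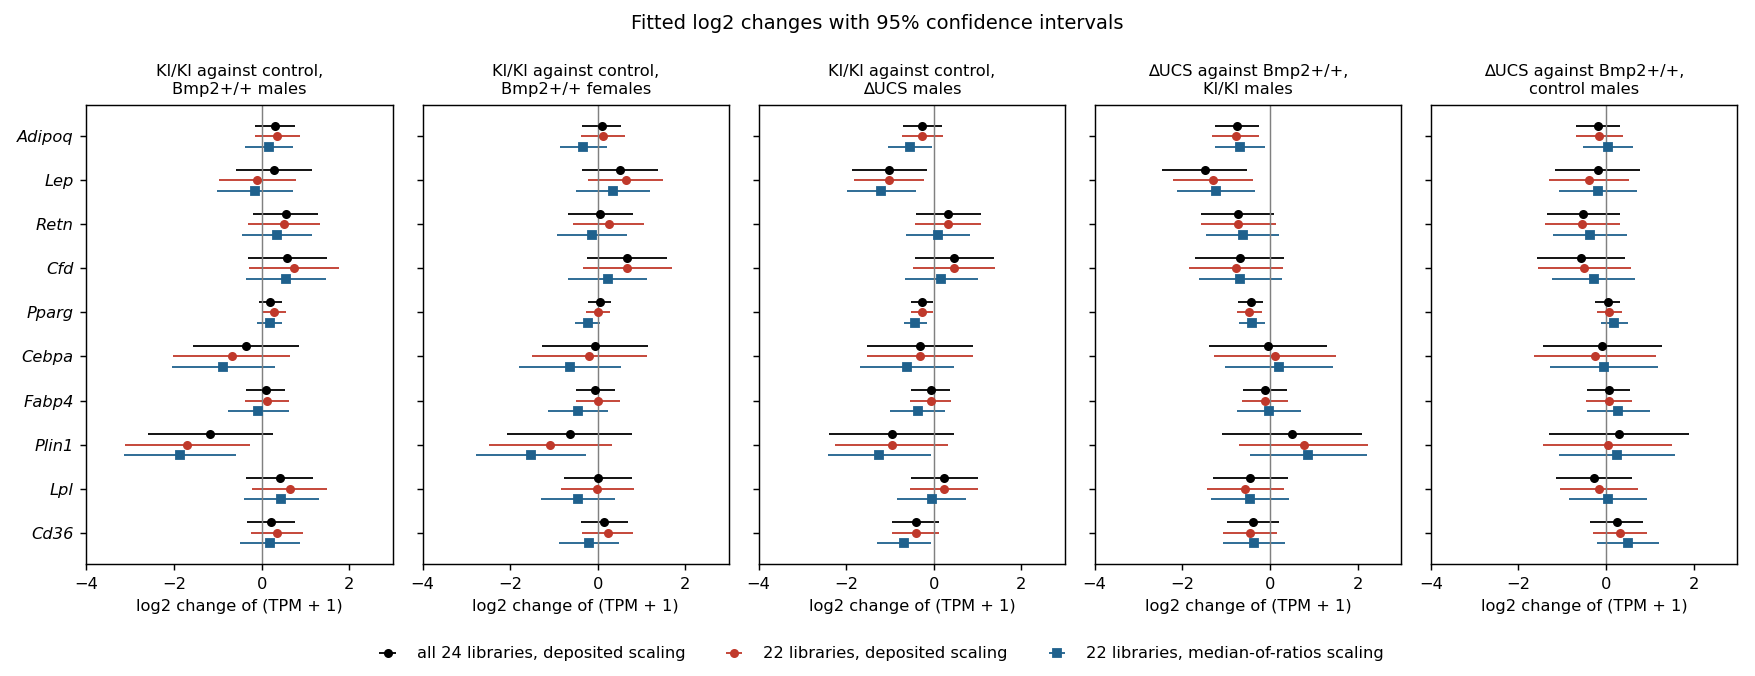
Log2 change on log2(TPM + 1) of the 10 genes, Kl/Kl minus control in Bmp2+/+ males, Bmp2+/+ females and ∆UCS males and ∆UCS minus Bmp2+/+ in Kl/Kl and control males, with 95% confidence intervals of the limma fit, for all 24 libraries and for 22 libraries on the deposited and the median-of-ratios scale. Plin1 is left of 0 in all 3 Klotho panels, from −1.17 to −0.64 as labelled, and Lep is left of 0 in the ∆UCS males (−1.01) and in the ∆UCS comparison of Kl/Kl males (−1.49).

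The promoters of these genes are shown for the pair whose mRNA varied together most closely, Plin1 and Cebpa, and for the adipokines Lep and Adipoq, described above. RefSeq windows in GRCm38.p6, an older build than that of the files, were found for 8 of the 10 members (10 windows, because Pparg has several starts), reaching from 250 bases before to 50 bases after the transcript start. The windows are Plin1 at chr7:79732727-79733026 on the minus strand, Cebpa at chr7:35119043-35119342 on the plus strand, Lep at chr6:29059971-29060270 on the plus strand and Adipoq at chr16:23146286-23146585 on the plus strand. Each is given 5′ to 3′ on the gene's strand.
Plin1: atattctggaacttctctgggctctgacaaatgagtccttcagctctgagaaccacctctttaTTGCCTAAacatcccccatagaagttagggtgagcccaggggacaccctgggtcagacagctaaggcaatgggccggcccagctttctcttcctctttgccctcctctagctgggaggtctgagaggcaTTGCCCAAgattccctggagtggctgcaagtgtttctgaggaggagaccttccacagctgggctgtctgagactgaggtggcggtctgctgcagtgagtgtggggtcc
Cebpa: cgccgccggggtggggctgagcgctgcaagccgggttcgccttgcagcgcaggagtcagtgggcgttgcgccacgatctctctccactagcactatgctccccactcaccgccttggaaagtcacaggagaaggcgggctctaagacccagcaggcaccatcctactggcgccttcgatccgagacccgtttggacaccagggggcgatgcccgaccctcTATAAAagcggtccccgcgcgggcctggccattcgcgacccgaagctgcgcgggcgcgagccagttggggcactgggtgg
Lep: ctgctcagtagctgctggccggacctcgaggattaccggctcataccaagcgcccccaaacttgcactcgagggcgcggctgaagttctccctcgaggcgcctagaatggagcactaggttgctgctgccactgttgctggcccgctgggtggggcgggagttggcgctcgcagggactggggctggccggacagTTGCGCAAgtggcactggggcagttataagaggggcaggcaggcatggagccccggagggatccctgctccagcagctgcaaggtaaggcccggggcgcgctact
Adipoq: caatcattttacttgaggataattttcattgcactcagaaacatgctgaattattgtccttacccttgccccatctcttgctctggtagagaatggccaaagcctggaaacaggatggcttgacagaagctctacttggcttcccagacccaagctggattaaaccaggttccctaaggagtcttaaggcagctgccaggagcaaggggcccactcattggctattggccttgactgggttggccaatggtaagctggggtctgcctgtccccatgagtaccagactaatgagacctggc
Capitals mark matches on either strand to TTGCNNAA, a core of the C/EBP site, to AGGTCA, the half-site of nuclear receptors such as PPARγ, or to TATAAA, the TATA box, and no 2 matches overlap in these windows. Plin1 has 2 C/EBP cores, at −187 and −58 from the start, Lep has 1 at −55, Cebpa has a TATA box at −30, and Adipoq has no match to these letters in its window. TTGCNNAA was found in 3 of the 10 member windows and in 10.8% of all 32851 promoter windows of that length, AGGTCA in 3 of 10 and in 16.3%, and TATAAA in 2 of 10 and in 13.6%. A match is a run of letters and not evidence of binding.

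Across the 24 libraries, after each group's mean on log2(TPM + 1) was subtracted, Cebpa and Plin1 had the highest correlation of the 45 pairs of members (Pearson r = 0.847, Spearman rho = 0.863). Their r was 0.82 without the 2 libraries farthest from the median of Cebpa, 0.83 after median-of-ratios scaling and 0.879 without the 2 doubted libraries. In every pair the farthest libraries were picked by the first-named gene alone, so extreme values of the other gene could remain. Other pairs with high values were Lpl and Cd36 at r = 0.752, Adipoq and Lpl at 0.745, Adipoq and Cd36 at 0.704, and Adipoq and Cfd at 0.687. Cfd had r = 0.652 with Cebpa and 0.524 with Plin1, which were 0.748 and 0.752 without the 2 doubted libraries. Without the 2 farthest libraries those of Lpl with Cd36, Adipoq with Lpl and Adipoq with Cfd were 0.697, 0.641 and 0.452. Adipoq and Plin1, both defining genes of mature fat cells, had r = 0.326, which was 0.0726 without the 2 farthest libraries and 0.551 without the 2 doubted ones. The pairs of Cebpa and of Lep with Fabp4 had the lowest values, −0.324 and −0.323, and −0.312 and −0.371 without the 2 doubted libraries. These correlations describe 24 libraries that share depth and scaling, and carry no p.

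**Figure D3:**
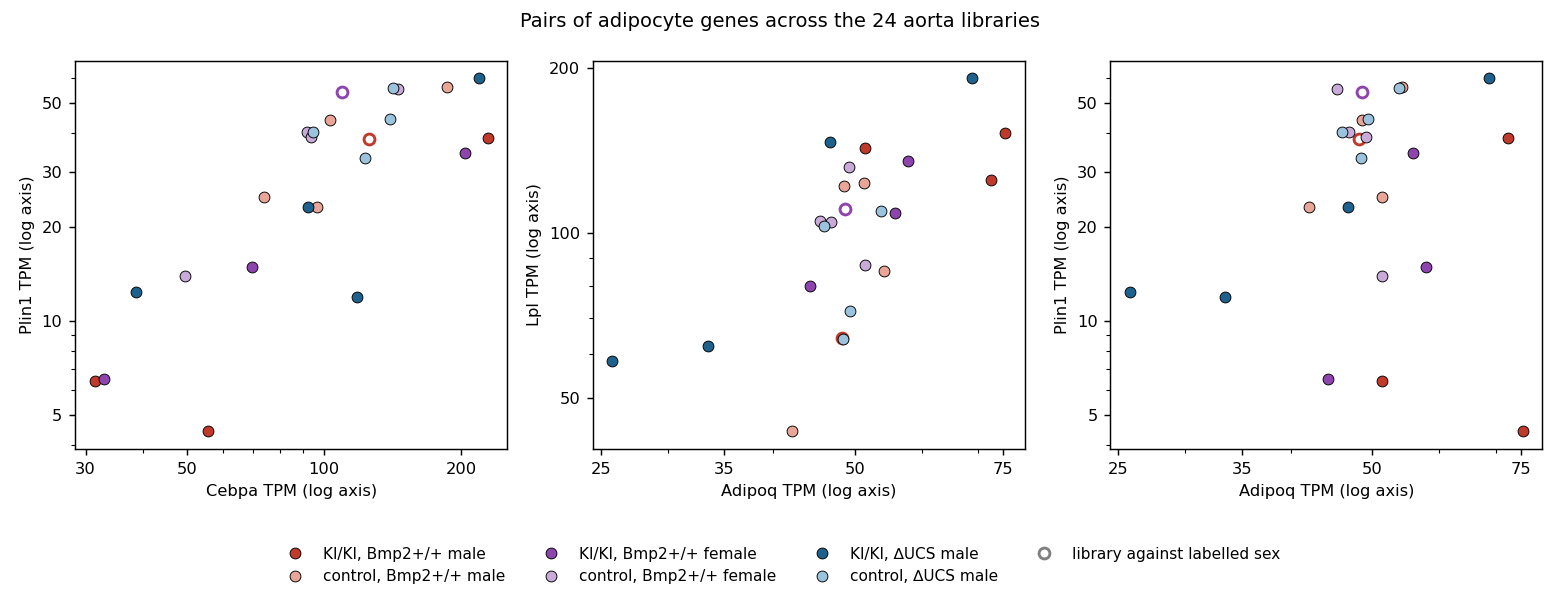
Deposited TPM (log axes) of Plin1 against Cebpa, Lpl against Adipoq and Plin1 against Adipoq in the 24 libraries, each point being 1 aorta and open points being the 2 doubted libraries. Plin1 and Cebpa climb together (r = 0.847 within groups), and Plin1 scatters more against Adipoq (r = 0.326 within groups, and 0.551 without the 2 doubted libraries), with values of 4.43 and 60.0 TPM among the aortas of high Adipoq.

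Outside the members, the 6 genes whose deviations were most like those of Adipoq, among 6211 genes compared over the 24 libraries, were Ednrb, the endothelin B receptor (r = 0.889), Lrrc58 (0.854), Amy1, an amylase gene with near-identical copies whose reads cannot be assigned with certainty (0.839), Osbpl11, an oxysterol-binding-protein relative (0.827), Adgrf5, an adhesion G-protein-coupled receptor (0.815), and Cyp2e1, a cytochrome P450 enzyme (0.811). Without the 2 libraries farthest from the median of Adipoq these values were between 0.63 and 0.844.

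The ∆UCS allele was then compared with Bmp2+/+ within each Klotho genotype. These comparisons use the same libraries as the Klotho comparisons above, and all ∆UCS libraries were in set 1 while each Bmp2+/+ male group had 2 of its 4 libraries there, so they lean on the set term of the fit. Among Kl/Kl males, ∆UCS aortas had 0.777, 1.04, 0.731 and 0.599 TPM of Pparg, against 0.880, 1.62, 1.47 and 1.21 TPM in Bmp2+/+ aortas. Only ∆UCS library 2 exceeded the lowest Bmp2+/+ library, which is the doubted one. The log2 change of Pparg was −0.44 (SE 0.14, 95% confidence interval −0.72 to −0.15, limma unadjusted p = 0.0045, adjusted p = 1). Without the 2 libraries all ∆UCS libraries were lower, as were those of 1.06% of all genes, and the change was −0.47 (SE 0.14, limma adjusted p = 1). After median-of-ratios scaling of all 24 libraries they were lower as well, as were those of 0.272% of all genes.

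Leptin and adiponectin mRNA also had negative log2 changes among Kl/Kl males, and did not pass. Lep had 1.08, 0.354, 0.913 and 0.147 TPM in ∆UCS aortas, against 4.70, 4.86, 3.21 and 0.194 TPM in Bmp2+/+ aortas. Bmp2+/+ library 4 was as low as the ∆UCS libraries and the other 3 were above all of them. The log2 change was −1.49 (SE 0.46, 95% confidence interval −2.46 to −0.53, limma unadjusted p = 0.0042, adjusted p = 1) and −1.30 (SE 0.43, limma adjusted p = 1) without the 2 libraries. Adipoq had 33.5, 68.8, 46.8 and 25.8 TPM in ∆UCS aortas, against 48.3, 72.5, 75.4 and 51.4 TPM in Bmp2+/+ aortas. Library 2 of the ∆UCS group lay among the Bmp2+/+ values and the other 3 below them, a log2 change of −0.75 (SE 0.24, 95% confidence interval −1.26 to −0.25, limma unadjusted p = 0.00536, adjusted p = 1). These unadjusted values stand among 89 of 9933 genes with an unadjusted limma p under 0.05 in this comparison, and 0% of all genes passed after adjustment.

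All 4 adipokines had negative fitted log2 changes between ∆UCS and Bmp2+/+ Kl/Kl males, with a median of −0.75, against −0.007 over all tested genes. The log2 ratios of the group means use neither the set term nor the added 1. They were −0.50 for Adipoq, −0.52 for Retn, −0.43 for Cfd and −2.38 for Lep. The fitted log2 change was −0.74 for Retn and −0.69 for Cfd, and without Bmp2+/+ Kl/Kl replicate 2 it was −0.24 for Retn and −0.083 for Cfd. Cfd was −0.28 without ∆UCS Kl/Kl replicate 4, and Retn was −0.48 without ∆UCS Kl/Kl replicate 1. The 2 differentiation factors had a median of −0.24 and the 4 lipid genes one of −0.25, with Plin1 the positive value among these 6, at 0.50 (SE 0.77), and Cebpa at −0.05, which was positive on the median-of-ratios scale (0.04). The values of the members between ∆UCS and Bmp2+/+ control males lay between −0.58 for Cfd and 0.30 for Plin1, with Adipoq at −0.18, Lep at −0.19 and Pparg at 0.04 (limma adjusted p = 0.944, 0.945 and 0.957). The median of all genes was −0.17 there.

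Whether the Klotho difference itself depended on the Bmp2 allele was tested as an interaction. The Kl/Kl change in ∆UCS males minus that in Bmp2+/+ males was −0.47 for Pparg (SE 0.17, 95% confidence interval −0.83 to −0.11, limma unadjusted p = 0.0126, adjusted p = 0.997), −1.30 for Lep (SE 0.59, limma adjusted p = 0.997) and −0.57 for Adipoq (SE 0.31, limma adjusted p = 0.997). The Lep value was −0.91 (SE 0.57, limma adjusted p = 0.956) without the 2 libraries. Among the other members, Cd36 was at −0.63 (SE 0.37), Retn at −0.22, Fabp4 at −0.17, Lpl at −0.17 and Cfd at −0.12. Plin1, at 0.21, and Cebpa, at 0.03, were positive. Between the sexes, the Kl/Kl change in Bmp2+/+ females minus that in Bmp2+/+ males was −0.22 for Adipoq, 0.23 for Lep and −0.16 for Pparg, with limma adjusted p = 0.995 each. No member passed in either interaction, and 0% of all genes did.

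Other genes of adipocytes and their surroundings were read from lists chosen by function, none of which had a called gene with all 24 libraries. Of 22 further genes of adipocyte identity, 21 were tested, and their median log2 changes were −0.31 in Bmp2+/+ males, −0.19 in Bmp2+/+ females and −0.59 in ∆UCS males, against 0.09, 0.27 and 0.26 for all genes, with 16, 16 and 17 of the 21 negative. On leaving out the 2 libraries, 1 rose and 1 fell in Bmp2+/+ males, 0 changed in Bmp2+/+ females and 1 fell in ∆UCS males. Agpat2, an enzyme of triglyceride synthesis, fell in Bmp2+/+ males (log2 change −2.25, SE 0.53, limma adjusted p = 0.0413). Sult1a1, a sulfotransferase, rose in the same comparison (2.00, SE 0.39, limma adjusted p = 0.0107), and S100b, a calcium-binding protein, fell in ∆UCS males (−1.18, SE 0.26, limma adjusted p = 0.0391). With median-of-ratios scaling added, 1 rose and 1 fell in Bmp2+/+ males, 3 fell in Bmp2+/+ females (Slc2a4, the insulin-responsive glucose transporter, Gpd1, an enzyme of glycerol phosphate synthesis, and Adrb3, the β3-adrenergic receptor) and 3 fell in ∆UCS males (Adrb3, S100b and Trarg1, a regulator of glucose transporter trafficking). The genes given for this scaling were picked because they passed.

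Markers of brown adipocytes were lower on average in every Klotho comparison. Of 10, 8 were tested, all 8 had negative log2 changes in each comparison, and the medians were −0.89, −0.75 and −0.75. Ucp1, the uncoupling protein of heat production, had log2 changes of −1.64, −1.39 and −1.40 and was not called (limma adjusted p = 0.785, 0.333 and 0.322). Otop1, a proton channel of brown fat, fell in Bmp2+/+ males without the 2 libraries (−1.47, SE 0.33, limma adjusted p = 0.0306), and had −1.20 in Bmp2+/+ females and −1.14 in ∆UCS males (limma adjusted p = 0.0551 and 0.0722). The summed TPM of the 10 markers was 282 to 788 in Bmp2+/+ male Kl/Kl aortas and 871 to 1177 in their controls, 271 to 815 in female Kl/Kl aortas and 658 to 949 in female controls, and 376 to 1243 in ∆UCS Kl/Kl aortas and 827 to 1080 in ∆UCS controls. The Kl/Kl sums without the 2 libraries were 282 to 536 in Bmp2+/+ males and 271 to 597 in females, below all their controls. Of all single genes, 1.19% in Bmp2+/+ males and 1.64% in females were likewise lower with no overlap. Such a sum weighs each gene by its TPM, so genes at high TPM such as Ucp1 weigh most in it. Ucp1 was at 22.2 to 486 TPM and Cidea at 20.0 to 55.9 TPM over the 24 libraries, and Zic1 was under 1 TPM in all 24. The part of these levels in the Plin1 and Cebpa values was not tested.

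Macrophage markers had median log2 changes of 1.55, 2.00 and 1.76 with all 24 libraries, and 0 were called. Of 8, 6 were tested, and without the 2 libraries 3 rose in Bmp2+/+ males, 5 in Bmp2+/+ females and 3 in ∆UCS males, among them Cd68 (log2 changes 3.36, 3.97 and 2.89), Mpeg1 (3.43, 4.58 and 2.65) and Cd14 (2.65, 3.21 and 2.11), all with a limma adjusted p of at most 0.0101. Their summed TPM was 34.5 to 279 in Bmp2+/+ male Kl/Kl aortas and 17.0 to 58.6 in their controls, 27.2 to 285 in female Kl/Kl aortas and 17.5 to 24.3 in female controls, and 75.1 to 172 in ∆UCS Kl/Kl aortas and 20.5 to 42.0 in ∆UCS controls. The lowest Kl/Kl value of each Bmp2+/+ sex, 34.5 and 27.2 TPM, belonged to the doubted library. Adgre1 was under 1 TPM in all 24 libraries, and no marker of any list was at 0 reads. Macrophages can express Lpl, Cd36, Fabp4 and Pparg, and their part in the values of those genes was not tested.

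**Figure D4:**
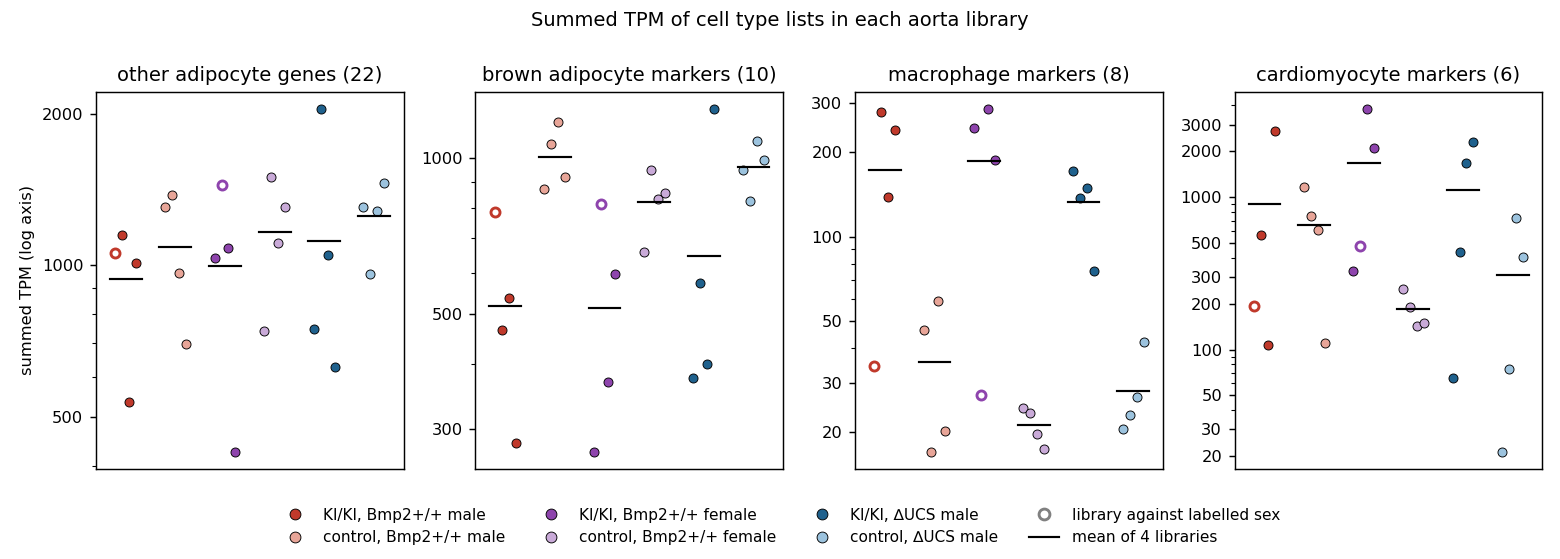
Summed TPM of 22 other adipocyte genes and of brown adipocyte, macrophage and cardiomyocyte markers in the 24 libraries (log axis), by group with Kl/Kl left of its control, each point being 1 aorta, each line the mean of 4 and open points the 2 doubted libraries. Macrophage sums are higher in most Kl/Kl aortas, brown adipocyte sums are lower in many of them, and cardiomyocyte sums span 21.4 to 3775 TPM. Of the cardiomyocyte markers, Nppa alone spans 0.466 to 3086 TPM.

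The aorta itself was represented in all libraries by smooth muscle markers, with Myh11 at 1.82 to 18.3 TPM, Acta2 at 24.3 to 212 TPM and Tagln at 40.0 to 367 TPM, although Myocd was under 1 TPM in all 24. None of the 5 tested smooth muscle markers was called. Cardiomyocyte markers, summed, ranged from 108 to 2729 TPM in Bmp2+/+ male Kl/Kl aortas and 111 to 1175 in their controls, 326 to 3775 in female Kl/Kl aortas and 144 to 252 in female controls, and 64.9 to 2304 in ∆UCS Kl/Kl aortas and 21.4 to 733 in ∆UCS controls, with 0 of 5 called. Such a sum weighs each gene by its TPM, and the cardiomyocyte marker Nppa alone ranged from 0.466 to 3086 TPM over the 24 libraries. Of the endothelial markers 0 of 4 were called. The part of heart or endothelial RNA in the values of Lpl, Cd36 and Fabp4 was not tested.

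Among 20 other adipokines, 11 were tested and had median log2 changes of 0.41, 0.40 and 0.26 in the 3 Klotho comparisons, the last of which was −0.004 on the median-of-ratios scale. In the 22 other libraries 2 rose in Bmp2+/+ females and 0 changed in the males. They were Lcn2, lipocalin 2, which is also made by myeloid cells (3.22, SE 0.67, limma adjusted p = 0.00914), and Ccl2, a chemokine that draws monocytes (1.79, SE 0.29, limma adjusted p = 0.00076). Both rose with the macrophage markers in those libraries, and the part of macrophages was not tested. Cfb, the substrate of adipsin in the alternative complement pathway, had 1.54 in Bmp2+/+ females without the 2 libraries (SE 0.42, limma adjusted p = 0.0585) and was not called.

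The remaining lists were nearly without calls. Among partners of Lpl and Cd36 in fatty acid uptake, 14 of 18 were tested and 1 was called without the 2 libraries, Angptl8, an inhibitor of lipoprotein lipase, which fell in ∆UCS males (−1.63, SE 0.36, limma adjusted p = 0.0391). Of 20 regulators of adipogenesis 10 were tested and 0 called, with Cebpd, an early C/EBP factor, at 1.00, 0.91 and 1.35 (limma adjusted p = 0.83, 0.339 and 0.208 as labelled). Of 9 adipokine receptors 4 were tested, of 10 adipocyte progenitor markers 7, and 0 of either were called. Only Adipor1 and Adipor2, the adiponectin receptors, Cap1, a resistin receptor in human cells, and Aplnr, the apelin receptor, were expressed well enough to test among the receptors.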

How the data were processed

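The deposited table holds TPM per gene. The submitters' processing notes name Partek as the tool and mm39 as the build. Per the labels' protocols, RNA was extracted with a miRNeasy kit from flash-frozen aortas and directional polyA libraries were made. The aligner, the annotation release and whether counting used strand were stated in none of the sources used here. Each TPM column sums to the same total and holds no 0, since a constant of 0.0001 read stands for 0 reads. Reads were estimated from that floor, and 73.3% of 256302 values between 0.5 and 20 reads came within 0.05 of a whole number.

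Genes with at least 1 TPM in at least 4 libraries (9933 genes) were fitted on log2(TPM + 1) with limma 3.58.1 in R 4.3.3, with 6 group means and the library set, an eBayes trend, two-sided tests, Benjamini-Hochberg adjustment over all genes and a threshold of 0.05. The added 1 shrinks the fold changes of low genes such as Lep and Pparg. The fit was also run on counts simulated with one spread for all groups, so that run does not cover the wider Kl/Kl spread of these data. Median-of-ratios factors came from 4381 genes, and voom ran on estimated reads of 22374 genes, scaled by median-of-ratios factors of those reads. All 24 sample columns were used, and 0 were left unused. No 2 libraries were identical. Same-numbered replicates of compared groups did not deviate together (correlations of −0.477 to 0.349), so the numbers were not taken as pairs. Pairing by age or by library name was not tested.

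All 10 members are named. Of each list, the genes named are among the 4 with the largest absolute log2 change in Bmp2+/+ females or ∆UCS males, were picked because they passed, or are defining markers given by their level. Members, lists and tests were chosen with earlier results of these data known. The result of 1 gene of the lists is not reported here.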

Additional observations from a re-analysis of the deposited data

Results flagged for a closer look

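Of 60 sets of 4 libraries (10 genes in 6 groups), 4 held a library that stood apart from the other 3, where chance gives about 5% of sets. Fabp4 was 1951 TPM in Bmp2+/+ Kl/Kl female replicate 3, against 1066 to 1171 TPM in the other 3. Bmp2+/+ Kl/Kl male replicate 2 stood apart for both Retn, at 14.73 TPM against 2.99 to 4.99 TPM in the other 3, and Cfd, at 1707 TPM against 448 to 651 TPM. Cd36 was 11.58 TPM in ∆UCS control male replicate 2, against 13.58 to 13.92 TPM in the other 3.

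The leptin difference between Kl/Kl and control pointed in opposite directions in ∆UCS males (log2 change −1.01, all 4 Kl/Kl libraries below the control mean) and in Bmp2+/+ females (0.51, all 4 above it), a gap of −1.52 for Lep. Every member and every pair of the Klotho comparisons was searched for such opposite directions, and no other case was found. The female Kl/Kl libraries include a doubted one. The gap was not tested, and these groups also differ in sex and library set.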

How the results depend on the processing

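The number of members called was 0 in each contrast under every one of the 62 settings that fitted it, in 2366 fits of a member. Not every setting fitted all 7 contrasts. Signs were followed for 49 member values. These were all members in the Klotho comparisons and between ∆UCS and Bmp2+/+ Kl/Kl males, and only Adipoq, Lep and Pparg in the remaining contrasts. Of the 49, 27 kept their sign throughout and 14 changed it under an alternative other than leaving out a replicate. When a replicate was left out, with or without the 2 doubted libraries, 17 changed it. A filter of 5 TPM removed Lep and Pparg, which then have no value. A pseudocount of 0.1 moved Lep in ∆UCS males to −1.89, Lep between ∆UCS and Bmp2+/+ Kl/Kl males to −2.37, and Pparg in ∆UCS males to −0.51. With a replicate block, no member was called, and Plin1 was −1.17, −0.64 and −0.96 in the Klotho comparisons. Lep had the lowest read estimate of a single library, at 81 reads, but its highest, 2877 reads, exceeded that of Retn, 1834 reads. The library set alternative "set 2 alone" leaves 2 libraries per male group. The cause of the sign changes was not tested, except that fewer libraries enter some fits.

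Log2 changes whose sign differed are given with the value reported first. Kl/Kl against control in Bmp2+/+ males: Lep 0.29 was −0.10 without the 2 libraries, −0.15 with median-of-ratios scaling and −0.34 with voom added, −0.037 in set 2 alone and −1.17 in set 2 without the 2 libraries. Fabp4 0.10 was −0.071 and −0.028 with those scalings without the 2 libraries, −0.071 and −0.048 with them on all libraries, and −0.0083 in set 1 alone. Cd36 0.21 was −0.078 in set 2 alone. In Bmp2+/+ females the values under median of ratios and voom, without the 2 libraries and then with all, were −0.33, −0.41, −0.29 and −0.37 for Adipoq (reported 0.09), −0.13, −0.23, −0.27 and −0.39 for Retn (0.06), −0.23, −0.51, −0.16 and −0.37 for Pparg (0.04), −0.46, −0.53, −0.37 and −0.45 for Lpl (0.01), and −0.20, −0.26, −0.21 and −0.29 for Cd36 (0.15). Without the 2 libraries, in the fit of all groups and in set 2 alone, Fabp4 (−0.05) was 0.012 and Lpl was −0.0065. In ∆UCS males Lpl (0.24) was −0.052, −0.099, −0.052 and −0.099 under the same 4 scalings.

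For ∆UCS against Bmp2+/+ in Kl/Kl males, Cebpa (−0.05) was 0.12 without the 2 libraries, 0.21 and 0.18 with median of ratios and voom added, 0.037 and 0.00042 with those on all libraries, 0.22 without the library set, 0.033 with age as a covariate and 0.029 with the replicate block. In control males Adipoq (−0.18) was 0.050, 0.070, 0.034 and 0.042 under the 4 scalings and 0.015 without the library set, and Lep (−0.19) was 0.0059 with median of ratios and 0.11 without the library set. For the sexes' difference Pparg (−0.16) was 0.00064 in set 2 alone.

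Leaving out a replicate, with or without the 2 doubted libraries, gave these lowest and highest values. In Bmp2+/+ males Lep ran from −0.75 to 0.80, Cebpa from −1.35 to 0.10 and Fabp4 from −0.0083 to 0.29. In Bmp2+/+ females Retn ran from −0.17 to 0.44, Pparg from −0.045 to 0.082, Cebpa from −0.88 to 0.42, Fabp4 from −0.26 to 0.18 and Lpl from −0.18 to 0.19. In ∆UCS males Cebpa ran from −0.70 to 0.12, Fabp4 from −0.21 to 0.12 and Lpl from −0.067 to 0.50. Between ∆UCS and Bmp2+/+ Kl/Kl males Cebpa ran from −0.57 to 1.00, Fabp4 from −0.29 to 0.079 and Plin1 from −0.42 to 1.82. Between ∆UCS and Bmp2+/+ control males Lep ran from −1.26 to 0.28 and Pparg from −0.088 to 0.13, and for the sexes' difference Lep ran from −0.29 to 1.39.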
